A study of Drosophila melanogaster with 12 samples.

Results

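The genes described here are the ligands, receptors and effectors of the Dpp/BMP pathway in the wing imaginal disc of Drosophila melanogaster, listed as members of a named pathway by a rule that uses no measured value, although earlier results of these data were known when the list was drawn up. Of the 10 genes on the list (dpp, gbb, tkv, sax, put, Mad, Med, shn, brk and Dad), 9 were matched to a row among the 17158 genes of the table, and Med, the co-Smad gene, was not matched and is not analysed here. Poly(A) RNA of wing discs from larvae of the third instar was sequenced at 0 h, 15 h and 25 h after apoptosis had been induced, and regenerating discs were set against undamaged discs held in the same way. There were 6 groups, each with 2 libraries made from 40 discs apiece. The labels call regeneration and control genotypes of the flies, but the sources used here give no allele, driver or killing transgene for either, nor the part of the disc in which cells died.

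Dpp and Gbb are secreted BMP ligands. They bring together a type I receptor (Tkv or Sax) and the type II receptor Put, which phosphorylates the type I receptor, and this in turn phosphorylates the transcription factor Mad. Phosphorylated Mad enters the nucleus with Med, and with the zinc finger protein Shn the complex represses brk, itself a repressor of pathway targets, while Mad and Med activate targets such as Dad, an inhibitory Smad. In the wing disc dpp is expressed along the compartment boundary in response to Hedgehog, and the protein forms a gradient that patterns the wing and is needed for its growth.

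Levels are in FPKM, fragments per unit of transcript length and of library size, and the authors had merged the replicates into 1 value for each gene and group. Because the unit is per length, levels of different genes can be set side by side. No spread between replicates could be computed, so no difference below has a replicate check, no test was possible and no p-value is given. Read depth is unknown. A gene was called higher or lower where log2 of the ratio of (FPKM + 1) was at least 1 in size and either column reached 1 FPKM. All 9 members passed that filter in every comparison and none was listed at 0. The median gene among those measured had log2 ratios of 0.47 at 0 h, 0.35 at 15 h and 0.10 at 25 h, so each log2 ratio of regenerating over control discs is also given relative to it. Decimal points that 5 of the 6 columns lack were restored, which touched 24 of the 54 member values. The restored values lay between 0.864 and 2.01 times the median of the values of the same gene that needed no restoring, whereas undivided they would have been at least 864 times as high. The control column at 0 h carries fewer decimals than the others, so it may be a rounded mean or a single library, and each comparison with it carries that doubt.

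The 2 ligand genes differed widely in level. The gbb gene (FBgn0024234, chromosome 2R, 23851562 to 23853247) was the most abundant member in all 6 groups. In control discs gbb stood at 91.6, 93.4 and 128.9 FPKM at 0 h, 15 h and 25 h, and in regenerating discs at 126.8, 172.9 and 164.5 FPKM. At each of the 3 times the regenerating column was the higher one as deposited. With median-of-ratios scaling, which sets the columns level on the genes above 0 in all of them, the log2 ratio at 0 h was -0.07. In bulk samples such as these, fewer cells of a type and less RNA per cell cannot be told apart. The log2 ratios were 0.46, 0.88 and 0.35, or -0.01, 0.53 and 0.25 relative to the median gene, so only the values at 15 h and 25 h lay above that gene. At 15 h 89.9% of the measured genes had a lower ratio than gbb, although gbb did not pass the rule of size.

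The dpp gene (FBgn0000490, chromosome 2L, 2428372 to 2459823) was far lower. In control discs dpp stood at 5.51, 7.05 and 8.89 FPKM and in regenerating discs at 6.96, 8.54 and 8.92 FPKM. These values are between 0.0494 and 0.0754 of those of gbb in the same column. The level of dpp was highest at 25 h in both kinds of disc, where the 2 columns nearly coincided. Its log2 ratios were 0.29, 0.25 and 0.00, and relative to the median gene they were -0.18, -0.11 and -0.10. RNA from whole discs gives the amount of dpp message and not its place.

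**Figure D1:**
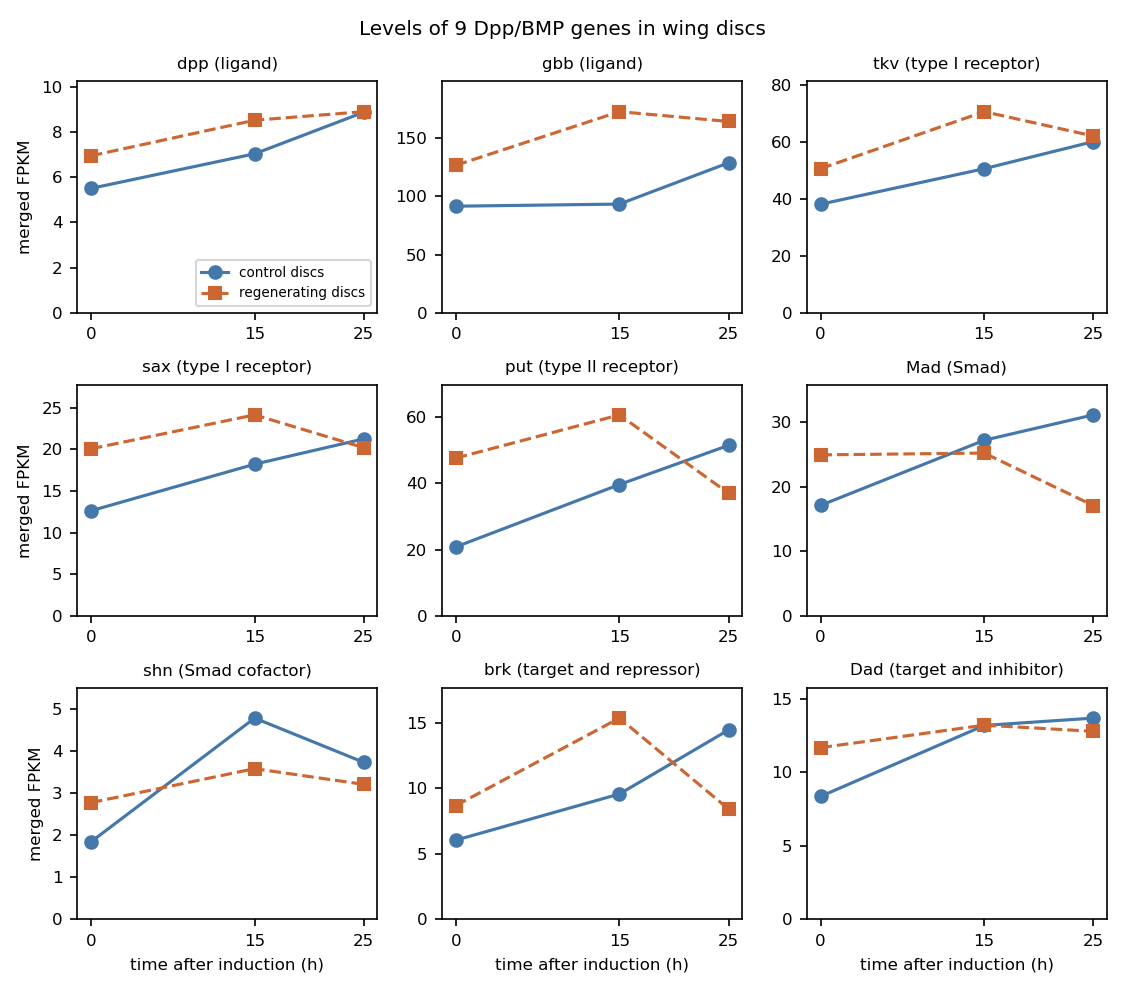
Merged FPKM (vertical axes, from 0, with a scale for each gene) of 9 Dpp/BMP genes against time after induction in hours, with control discs as circles and regenerating discs as squares; each point is 1 value merged by the authors, so there are no error bars. For put and brk the regenerating column as deposited lies above the control column at 0 h and 15 h and below it at 25 h, at 37.0 against 51.4 FPKM for put and 8.42 against 14.5 FPKM for brk.

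Of the type I receptor genes, tkv (FBgn0003716, chromosome 2L, 5219000 to 5271384), the main Dpp receptor of the wing disc, was the second most abundant member in each group. In control discs tkv stood at 38.0, 50.5 and 60.0 FPKM at the 3 times, and in regenerating discs at 50.5, 70.5 and 62.0 FPKM. Its log2 ratios of 0.40, 0.47 and 0.05 lay within 0.12 of the median gene, at -0.07, 0.12 and -0.06. The sax gene (FBgn0003317, chromosome 2R, 7806484 to 7810067), whose product mediates much of the response to Gbb, stood at 12.6, 18.2 and 21.2 FPKM in control and at 20.1, 24.1 and 20.2 FPKM in regenerating discs. The ratios of sax relative to the median gene were 0.16, 0.04 and -0.17. Within a column tkv was 2.52 to 3.07 times as high as sax. Such a ratio of 2 genes in the same column does not depend on how the column was scaled, and this one had the narrowest range of those formed.

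The type II receptor gene put (FBgn0003169, chromosome 3R, 14619030 to 14625703) had the widest range of all members as deposited, with a highest value 2.92 times the lowest. That lowest value is in the control column at 0 h, which median-of-ratios scaling divides by 0.713 and the other columns by 0.935 to 1.23. The rank of this range therefore depends on how the columns are scaled. In control discs put stood at 20.8, 39.6 and 51.4 FPKM, and in regenerating discs at 47.6, 60.6 and 37.0 FPKM. Regenerating discs at 0 h thus had nearly the level of control discs at 25 h, and the order of the 2 kinds of disc was the opposite at 25 h. At 0 h put was the 1 of 9 members called higher, with a log2 ratio of 1.16, against a background of 7.47% of 8202 measured genes called higher and 3.04% called lower. No member was called lower at 0 h. After median-of-ratios scaling the ratio was 0.64 and put did not pass the rule. Relative to the median gene the ratios of put were 0.69, 0.25 and -0.57 at 0 h, 15 h and 25 h. The level of tkv was 1.83 times that of put in control discs at 0 h and 1.06 times in regenerating discs, and at 25 h the 2 values were 1.17 and 1.68 times. Put also serves the Activin branch.

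The Mad gene (FBgn0011648, chromosome 2L, 3146056 to 3159643), which encodes the Smad that carries the BMP signal, stood at 17.1, 27.2 and 31.2 FPKM in control discs and at 25.0, 25.3 and 17.1 FPKM in regenerating discs. Control values were thus in ascending order over the 3 times, while regenerating discs at 25 h had nearly the level of control discs at 0 h as deposited. Median-of-ratios scaling divides these 2 columns by 1.10 and 0.713, so that likeness does not hold after it. The log2 ratios were 0.52, -0.11 and -0.83, or 0.05, -0.46 and -0.93 relative to the median gene. At 25 h the ratio of Mad was the lowest of the 9 members, and 4.93% of the measured genes had a lower one. It did not pass the rule of 2 times. Longer genes tended to lower ratios at 25 h, with a Spearman rho of -0.25 between exonic length and ratio across 7984 genes. Mad and brk hold 3412 and 3194 exonic bases, the shortest member, gbb, holds 1686 and the longest, shn, 10997. The part of length in the members' values was not tested. No member passed that rule in either direction at 15 h or at 25 h, where the background was 5.95% higher and 2.20% lower of 8095 genes and 9.11% higher and 3.19% lower of 8148 genes.

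The shn gene (FBgn0003396, chromosome 2R, 11159086 to 11217394) was the least abundant member in every group. In control discs shn stood at 1.84, 4.79 and 3.74 FPKM, and in regenerating discs at 2.78, 3.59 and 3.21 FPKM. From 0 h to 15 h in control discs it was the 1 member called higher, with a log2 ratio of 1.03 and a background of 5.02% of 8072 genes, and it did not pass the rule after median-of-ratios scaling, at 0.77. Regenerating over control, its ratios relative to the median gene were -0.06, -0.69 and -0.27. With 10997 exonic bases shn is also the longest member, and across all measured genes the log2 change from 0 h to 15 h in control discs ran with exonic length at a Spearman rho of 0.45 over 7913 genes. The part of length in the value of shn was not tested.

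The repressor gene brk (FBgn0024250, chromosome X, 7307939 to 7311132) and the inhibitor gene Dad (FBgn0020493, chromosome 3R, 17054007 to 17070408) are read as opposite outputs of the pathway, since signalling represses brk and activates Dad. In control discs brk stood at 6.04, 9.58 and 14.5 FPKM, and in regenerating discs at 8.69, 15.4 and 8.42 FPKM. Regenerating discs had the higher brk level at 0 h and 15 h and the lower one at 25 h as deposited, while median-of-ratios scaling turned the log2 ratio at 0 h to -0.02. The log2 ratios were 0.46, 0.63 and -0.72, or -0.01, 0.28 and -0.82 relative to the median gene, and at 25 h 6.76% of measured genes had a lower ratio. Between 15 h and 25 h the log2 change of brk was 0.55 in control discs and -0.80 in regenerating discs.

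Dad stood at 8.34, 13.2 and 13.7 FPKM in control discs and at 11.7, 13.2 and 12.8 FPKM in regenerating discs. The 2 columns were within 1 FPKM of each other at 15 h and 25 h. Its ratios of 0.44, 0.00 and -0.09 were -0.03, -0.35 and -0.19 relative to the median gene. The level of brk over that of Dad, a ratio free of column scaling, was 0.724, 0.727 and 1.06 in control discs at the 3 times. In regenerating discs it was 0.745, 1.17 and 0.659. The ratio was therefore nearly equal in both kinds of disc at 0 h, higher in regenerating discs at 15 h and lower in them at 25 h. The level of dpp over that of brk ran the other way, at 0.912, 0.736 and 0.614 in control and 0.801, 0.555 and 1.06 in regenerating discs. Since brk is the upper gene of the first ratio and the lower gene of the second, their opposite courses are not separate evidence. Dad over tkv was 0.219, 0.261 and 0.228 in control discs and 0.231, 0.187 and 0.206 in regenerating discs, with the widest gap at 15 h.

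**Figure D2:**
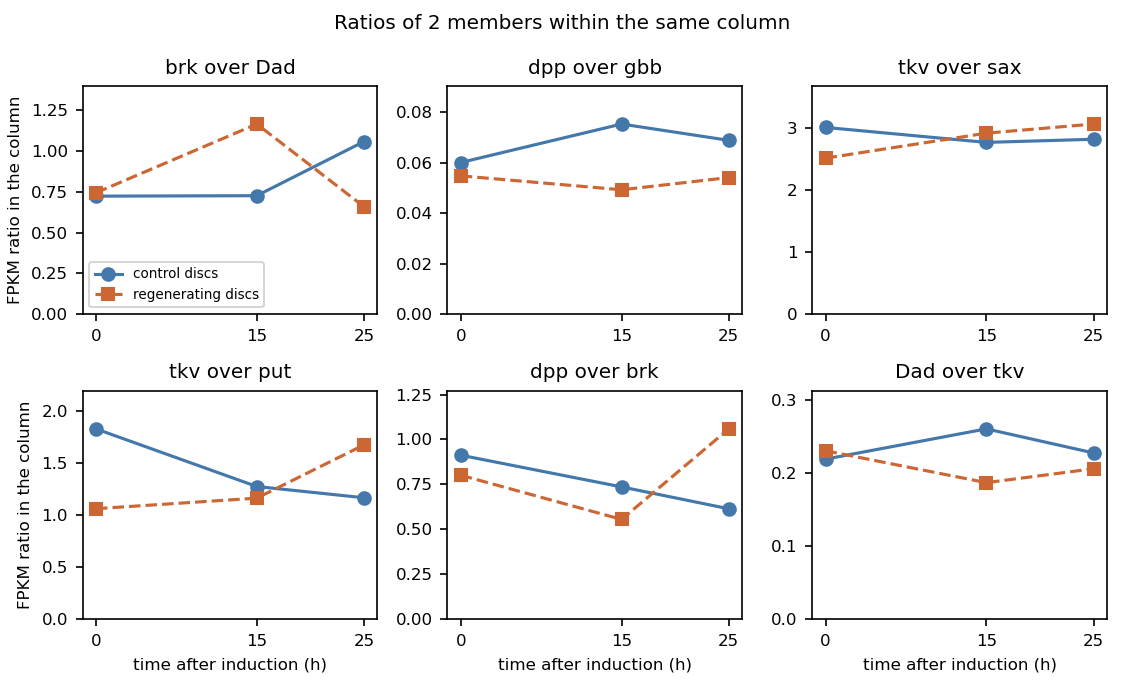
Ratio of the FPKM of 2 members in the same column (vertical axes, from 0) against time after induction in hours, with control discs as circles and regenerating discs as squares, 1 merged value each and no error bars. The curves of brk over Dad cross between 15 h, at 0.727 and 1.17 in control and regenerating discs, and 25 h, at 1.06 and 0.659, while tkv over sax stays between 2.52 and 3.07.

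Under a smaller rule of 1.5 times, sax and put were higher at 0 h and gbb, put and brk at 15 h, which is 2 and 3 of 9 members against a background of 35.7% and 29.4% of measured genes, and none was lower, against 4.13% and 4.85%. At 25 h Mad and brk were lower by that rule, 2 of 9 members against 9.73%, and none was higher, against 14.9%. After median-of-ratios scaling the rule of 1.5 times held for put, higher at 0 h (background 6.55% higher and 10.4% lower), for shn, lower at 15 h (7.60% and 12.7%), and for Mad and brk, lower at 25 h (13.2% and 10.8%). Mad and brk at 25 h and put at 0 h were thus called by it under both scalings.

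The shift between 15 h and 25 h was examined for all genes after the values of the members had been seen. The log2 ratio of regenerating over control at 25 h minus that at 15 h was -1.35 for brk, -1.07 for put and -0.72 for Mad, while the median gene had -0.27. The first 2 values are past 1 in size, so as deposited 2 of 9 members were lower by that measure. The background was 5.59% lower and 4.76% higher of 7874 genes. Relative to the median gene brk stood at -1.08 and put at -0.80, so put did not stay past 1 in size. Of all genes 1.07% had a lower value than brk and 4.01% a lower value than put. The values of the other 6 members lay between -0.53 for gbb and 0.17 for shn. Taken from 0 h to 25 h, the differences were -1.62 for put, -1.35 for Mad and -1.18 for brk, where the median gene had -0.36, 15.0% of 7853 genes were lower by that measure and 4.94% higher. Relative to the median gene they were -1.26, -0.99 and -0.82.

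**Figure D3:**
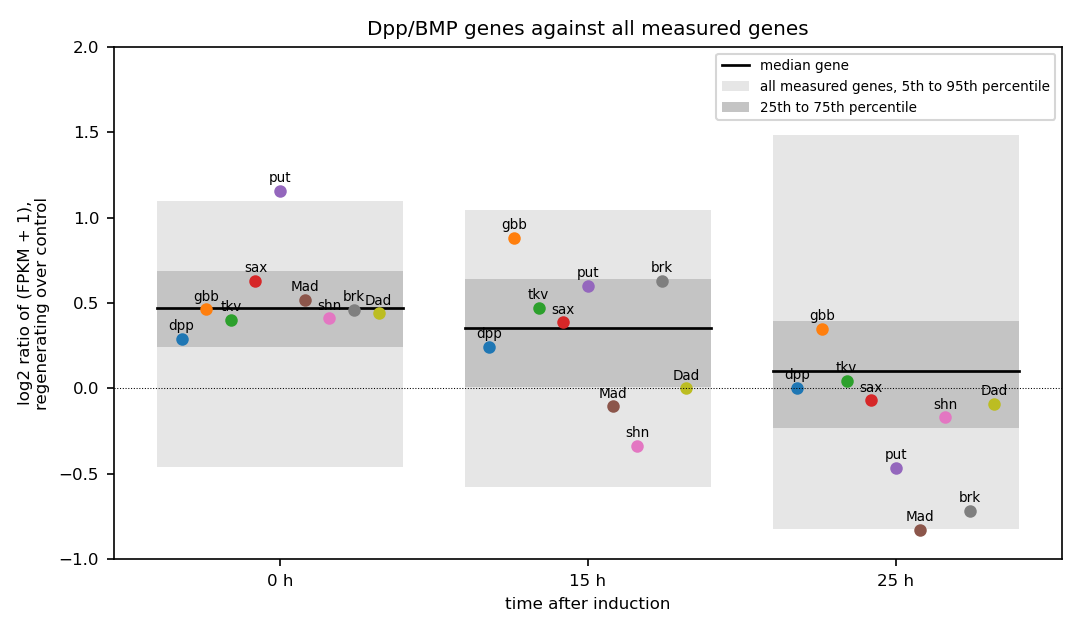
Log2 ratio of (FPKM + 1) in regenerating over control discs (vertical axis) at 0 h, 15 h and 25 h for each of 9 members (points), on grey bars that span the 5th to 95th and the 25th to 75th percentile of all measured genes, with a black line at the median gene. At 0 h put, at 1.16, lies above the pale bar, and at 25 h Mad, brk and put, at -0.83, -0.72 and -0.47, lie below the dark one, with Mad at the lower end of the pale bar.

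Over all members, the median log2 ratio was 0.46 at 0 h, 0.39 at 15 h and -0.09 at 25 h, beside 0.47, 0.35 and 0.10 for all measured genes. Relative to the median gene, 3 members were above and 6 below at 0 h, 5 above and 4 below at 15 h, and 1 above and 8 below at 25 h. The 1 above at 25 h was gbb, the shortest member, which was also the 1 below in control discs from 0 h to 15 h, at -0.27. In control discs 8 of 9 members lay above the median gene in the change from 0 h to 15 h and 7 of 9 in that from 15 h to 25 h, with put at 0.60 and brk at 0.40 relative to it in the first and the second interval. In regenerating discs 7 of 9 lay above it from 0 h to 15 h, led by brk at 0.54, and 6 of 9 below it from 15 h to 25 h, with brk at -0.69 and put at -0.59. No member was called in either interval of regenerating discs, where 3.26% of genes were higher and 3.68% lower from 0 h to 15 h and 2.86% and 2.58% from 15 h to 25 h. None was called from 15 h to 25 h in control discs, where the shares were 1.01% and 5.30%, nor called lower from 0 h to 15 h, where 2.09% were. Comparisons at adjoining times share columns, so these values are not independent of each other. Across all measured genes the ratio of regenerating over control ran with exonic length at a Spearman rho of 0.13, 0.08 and -0.25 at the 3 times. For the change from 0 h to 15 h rho was 0.45 in control and 0.37 in regenerating discs. From 15 h to 25 h it was 0.03 and -0.34. The part of length in the counts of members above and below was not tested.

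The order of levels was nearly fixed. In 3 of the 6 groups (control discs at 0 h and 15 h and regenerating discs at 0 h) it ran from gbb through tkv, put, Mad, sax, Dad, brk and dpp to shn. In regenerating discs at 15 h and control discs at 25 h brk stood above Dad, and in regenerating discs at 25 h sax stood above Mad and dpp above brk. Neighbours in this order, such as Dad and brk at 13.7 and 14.5 FPKM in control discs at 25 h, have no measured spread against which to set their difference.

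Genes with the most similar course over the 6 columns were sought among 5516 genes of at least 5 FPKM throughout, by the root mean square difference of centred log2 (FPKM + 1). The nearest to dpp were CG14764, Gle1 and tara, at 0.036, 0.040 and 0.045. CG6230, GV1 and sip3 were nearest to tkv, at 0.020, 0.033 and 0.034, and Zmynd8, CG11309 and stas were nearest to Dad, at 0.022, 0.029 and 0.031. For brk the nearest were GalT1, jumu and Nop17l, at 0.083, 0.086 and 0.087, so that its course had no match as close as those of the other 3 genes. Within 0.15 of their course lay 664 genes for dpp, 1075 for tkv, 521 for Dad and 83 for brk. This distance is not adjusted for how widely a gene varies. The highest value over the lowest was 2.55 for brk, against 1.62 for dpp, 1.85 for tkv and 1.64 for Dad. The part of that range in the distances was not tested.

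Other genes of the pathway were described by lists, with calls of regenerating against control discs unless a change between times is named. For these lists and the marker lists below, the background as deposited was 7.47% of measured genes higher and 3.04% lower at 0 h. It was 5.95% and 2.20% at 15 h and 9.11% and 3.19% at 25 h. A single call in a short list is therefore no result about the list. Of 17 extracellular modulators 15 were measured, and tsg and srw were listed at 0 in every group. At 0 h cv-2, a BMP-binding protein gene needed for the wing crossveins, was the 1 of 15 called higher, with 2.53 FPKM in control discs against 6.20 FPKM in regenerating ones, and it was not called after median-of-ratios scaling. The crossveinless gene cv, which encodes a secreted protein related to Tsg, had 26.1 FPKM against 53.1 FPKM and just missed the rule. No modulator was called at 15 h. At 25 h ltl, a gene for a secreted modulator of Dpp signalling, was the 1 called lower, with 8.57 FPKM in control discs against 3.51 FPKM, also after scaling. The list median relative to the median gene was 0.02, -0.11 and -0.19 at the 3 times. The glypican gene dally, which helps to spread and hold Dpp at cell surfaces, had 33.0 FPKM against 23.3 FPKM at 25 h.

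Of 6 cofactors and regulators, the corepressor gene gro, whose product works with Brk, was called higher at 0 h, with 22.9 FPKM in control discs against 49.1 FPKM, but not after scaling. None was called at 15 h, where gro stood at 39.5 and 78.6 FPKM and CtBP, a second corepressor gene, at 125.8 and 219.3 FPKM. At 25 h fuss, a gene of the Ski family, was called higher from a listing at 0 in control discs, with 1.23 FPKM in regenerating discs, and that control column lists more genes at 0, 9462 of 17158, than any other. Snoo, the other gene of that family, stood at 5.52 and 2.52 FPKM at 25 h. Between times, fuss was called lower from 0 h to 15 h in both kinds of disc. It was also called lower from 15 h to 25 h in control discs, and all 3 calls held after scaling. Levels of fuss were 4.12, 1.265 and 0 FPKM in control and 2.61, 0.745 and 1.23 FPKM in regenerating discs. From 0 h to 15 h in control discs nej and Snoo were called higher, against 5.02% of measured genes, but not after scaling.

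Of 6 targets of the pathway in the disc, none was called at any time or between times. At 25 h 5 of the 6 had a ratio below 0, and the list median was -0.50 relative to the median gene, beside -0.15 at 0 h and -0.23 at 15 h. The gene bi, which Dpp activates across the centre of the wing pouch, had 9.38 FPKM in control discs at 25 h against 4.77 FPKM in regenerating discs. The genes salm and salr, which need higher Dpp signalling, had 5.57 FPKM against 3.26 FPKM and 16.6 FPKM against 12.8 FPKM, and the wing selector gene vg had 26.2 FPKM against 19.1 FPKM. The notum target pnr was the 1 with a ratio above 0, at 8.98 and 10.4 FPKM. The pouch targets, which Brk represses, and brk itself lay on the same side of 0 at 25 h. So did 8 of 10 markers of the wing disc epithelium, vg, salm and bi among them. A link between brk and these targets was not tested.

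Of 7 genes of the Activin branch, which shares Put, 5 were measured at 0 h and 6 at 15 h and 25 h. Its receptor gene babo and Smad gene Smox stood at 13.3 and 12.1 FPKM and at 16.9 and 14.8 FPKM at 25 h. The ligand gene myo was called lower at 15 h, at 80.9 and 35.9 FPKM, and at 25 h, at 66.8 and 20.3 FPKM, also after scaling. The ligand gene daw was called higher at 25 h, at 0.52 and 3.05 FPKM. Another ligand gene of the branch, mav, had 53.0 FPKM in control discs and 34.2 FPKM in regenerating discs at 25 h. Of 5 genes of the Hedgehog input to dpp none was called between regenerating and control discs as deposited. The transcription factor gene ci, which controls dpp, stood at 58.7 and 94.0 FPKM at 15 h and at 58.7 and 29.1 FPKM at 25 h, with a log2 ratio of -0.99 at 25 h that passed the rule at -1.03 after scaling. Between times as deposited, ci was called higher from 0 h to 15 h in both kinds of disc and lower from 15 h to 25 h in regenerating discs. After median-of-ratios scaling the calls in regenerating discs held and the call in control discs did not.

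**Figure D4:**
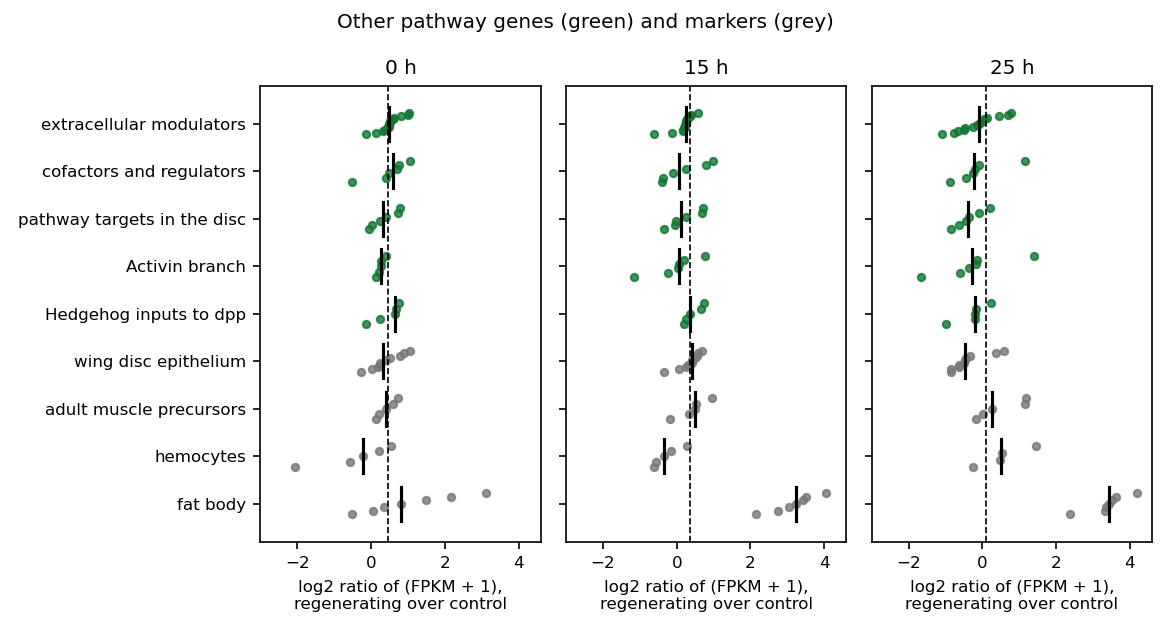
Log2 ratio of (FPKM + 1) in regenerating over control discs (horizontal axes) at 0 h, 15 h and 25 h for the measured genes of 5 lists of other pathway genes (green) and 4 lists of marker genes (grey), with a black bar at each list's median and a dashed line at the median of all measured genes. The fat body markers lie far to the right at 15 h and 25 h, with medians of 3.24 and 3.45, and the medians of all 5 pathway lists lie left of the dashed line at 25 h.

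Markers of the wing disc epithelium were present in every group, with all 10 above 0 and a summed level of 173.1, 259.2 and 286.5 FPKM in control discs and 227.1, 344.3 and 227.5 FPKM in regenerating discs. At 25 h 8 of these 10 had a ratio below 0, and their median was -0.58 relative to the median gene, on the same side as brk, Mad and put. Of these markers 3, vg, salm and bi, are also on the list of pathway targets, so the 2 lists are not separate evidence. Fat body markers, all 7 above 0 in each group, summed to 259.8, 7.66 and 56.6 FPKM in control and 404.8, 148.4 and 719.7 FPKM in regenerating discs. As deposited 3, 7 and 7 of 7 were called higher at the 3 times, against 7.47%, 5.95% and 9.11% of all measured genes. After median-of-ratios scaling 2 were called higher at 0 h, Lsp1gamma and Lsp2, and 1 lower, Fbp2 (background 2.34% higher and 5.46% lower). All 7 stayed higher after it at 15 h and 25 h. Markers of adult muscle precursors summed to between 26.9 and 33.0 FPKM in control and between 41.3 and 51.1 FPKM in regenerating discs, with none at 0. Much of these sums is twi and Him, which were called higher at 25 h, also after median-of-ratios scaling, with log2 ratios of 1.18 and 1.14. The rest of the list, htl, zfh1 and Mef2, had -0.17, 0.02 and 0.26 at 25 h. Relative to the median gene the list median was 0.15 at that time. Hemocyte markers summed to between 19.1 and 26.1 FPKM in control and between 19.5 and 24.9 FPKM in regenerating discs, with He at 0 in regenerating discs at 0 h and He and srp at 0 in control discs at 25 h. Much of these sums is crq, and the other 6 hemocyte markers, a split made after the values were seen, summed to 9.69, 12.3 and 3.45 FPKM in control and 5.31, 7.88 and 8.03 FPKM in regenerating discs. He was called lower at 0 h and higher at 25 h, and the median of the measured hemocyte markers was -0.68, -0.69 and 0.40 relative to the median gene. The 2 matched of 3 tracheal markers summed to between 41.5 and 64.3 FPKM in control and between 57.8 and 84.9 FPKM in regenerating discs. Most of these sums is Gasp. The other marker, trh, stood at 5.90, 9.35 and 8.21 FPKM in control and at 6.76, 7.88 and 7.14 FPKM in regenerating discs. The 2 markers thus differed in direction at 15 h and 25 h. The part of these tissues in the values of gbb, put, Mad and brk was not tested.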

How the data were processed

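The authors deposited FPKM per gene with the replicates of a group merged into 1 column, by a method not stated in the labels. Tools listed in the submitters' processing notes are STAR 2.4.0j and RSEM, with dm6 as the build and no roles given. Groups follow the sample titles. Outside the column of control discs at 0 h, whole numbers from 1000 upward that end in 5 were divided by 1000 (19565 values). That reading comes from the values alone, and 1 ambiguous value was left out. Also unused was 1 column that matches no sample. Symbols were found for 16912 identifiers, and coordinates are from Ensembl's BDGP6.54 annotation, the assembly of dm6. Read assignment is not stated in the labels, so genes that overlap are uncertain. Among the 9 members tkv alone shares exonic bases with other genes, 2 antisense genes of no more than 0.8 FPKM in any column.

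The members, lists and rules were chosen with earlier results of these data known. Named are all matched members and, of each other pathway list, genes past the rule of size and up to 3 with the largest ratio. dally, CtBP, salm, salr, babo and Smox were added for their roles after their values were seen. Calculations used Python 3.11.15, pandas 2.3.3 and numpy 2.4.6 and were tested on simulated data. The alternatives comprised pseudocounts of 0.1 and 5, filters of 0 and 5 FPKM, scaling by median of ratios or to a sum of 1000000, and rules of 1.5 and 4 times.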

Additional observations from a re-analysis of the deposited data

Results flagged for a closer look

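For 2 members the ratio of regenerating over control discs had opposite signs at different times, as deposited, after median-of-ratios scaling and after scaling to the same sum, with at least 0.1 on the log2 scale each time. The difference was not tested, because each group is 1 merged value. For put the log2 ratio was 1.16 at 0 h, 0.60 at 15 h and -0.47 at 25 h, so that the value at 25 h was -1.62 relative to that at 0 h and -1.07 relative to that at 15 h. For brk it was 0.63 at 15 h and -0.72 at 25 h, a difference of -1.35. These differences are as deposited. Relative to the median gene those of put were -1.26 and -0.80 and that of brk was -1.08. Summed fat body markers in regenerating discs were 148.4 FPKM at 15 h and 719.7 FPKM at 25 h, and their part in these differences was not tested.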

How the results depend on the processing

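Counts of called members depended on scaling and on the size of the rule. At 0 h the 1 member called higher turned to 0 after median-of-ratios scaling and under the rule of 4 times, and to 2 under the rule of 1.5 times, where the background was 35.7%. At 15 h the 0 called higher turned to 1 with columns scaled to the same sum (background 9.73%) and 3 under the rule of 1.5 times (background 29.4%), and median-of-ratios scaling with the rule of 1.5 times, chosen after seeing the data, gave 1 lower. At 25 h the rule of 1.5 times gave 2 lower, Mad and brk, as deposited and with median-of-ratios scaling (background 9.73% and 10.8%). From 0 h to 15 h in control discs the 1 higher turned to 0 with median-of-ratios scaling, a pseudocount of 5, a filter of 5 FPKM or the rule of 4 times, to 2 with the same sum (background 6.86%) and to 5 under the rule of 1.5 times (25.0%). In regenerating discs the rule of 1.5 times gave 1 higher from 0 h to 15 h (background 16.0%) and 2 lower from 15 h to 25 h (11.2%). Of 27 member ratios of regenerating over control, 9 changed sign after median-of-ratios scaling, 3 with the same sum, and 0 with either pseudocount, and no called value changed sign. Median-of-ratios scaling moved the median gene by 0.49, 0.36 and 0.05 at the 3 times. Of 18 differences of within-column ratios 2 changed sign with a pseudocount of 5. No paired analysis was possible because the columns carry no replicate, and for the same reason no replicate could be left out.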
